A study of Mus musculus with 16 samples.

Results

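Regulatory and conventional CD4+ T cells of venetoclax-treated mice are compared here, library against library. The members were 8 venetoclax libraries of a series of 16: the 4 libraries of sorted CD4+ FOXP3+ regulatory T cells (Treg) with the codes ABT1 to ABT4, and the 4 libraries of CD4+ FOXP3- conventional T cells (Tcon) with those codes. They were joined over the 10774 genes present in the tables of both subsets and paired by code. All mice, treated or not, were of the strain B6.Cg-Foxp3tm2Tch/J, genotype WT, which carries the FOXP3-IRES-GFP reporter, and the cells came from spleen and lymph node. Venetoclax, an oral small molecule that blocks the survival protein BCL-2, had been given at 50 mg/kg for 14 days. The other 8 libraries, with the codes VEH1 to VEH4 (4 Treg and 4 Tcon from mice given vehicle for the same 14 days), were used to ask whether a subset difference was the same without the drug, and entered the joint scaling of the reads. Age, sex and any pooling of animals are not in the labels. Since the sort used the Foxp3 reporter, Foxp3 chose the members and is no finding here.

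Tregs restrain other immune cells and depend on the transcription factor FOXP3. They carry the high-affinity interleukin-2 receptor, take up interleukin-2 made by Tcon, and signal through STAT5. Both subsets rely on survival proteins of the BCL-2 family, which hold the pore-forming proteins BAX and BAK in check, and interleukin-7 and interleukin-2 are known to sustain these proteins in T cells. Naive Tcon are marked by LEF1, SATB1 and the interleukin-7 receptor, while Tregs that have seen antigen carry effector and tissue-homing receptors.

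Levels are CPM, read counts divided by library size after joint scaling of all 16 libraries, given as mean ± SD of 4 libraries. Differences are Treg minus Tcon on the scale log2(CPM + 0.1) with the code as a block (limma), a scale that understates the change of low genes. Recovered reads ran from 21335006 to 24960570 per venetoclax library. The first principal component of the 8 libraries held 83.9% of the variance and separated the subsets, with Tcon between -51.9 and -38.3 and Treg between 43.4 and 47.2. Ddx3y, a Y-linked gene chosen after its values were seen, stood at 70.2, 230.1, 119 and 0.0400 CPM in Treg of ABT1 to ABT4 and at 63.2, 289, 132 and 0.0427 in Tcon. The codes thus differed in Y-linked reads while the subsets of 1 code were close. Among vehicle codes Ddx3y was at 220.1 in Treg and 247 in Tcon of VEH2 and near 0 in the others, so the treatments differed in Y-linked reads. The part of this in the differences between treatments was not tested.

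Foxp3 levels describe the gate and are given with no test. Foxp3 (Entrez 20371; chromosome X, 7579676 to 7595243, GRCm38.p6, as all gene coordinates here) stood at 882, 882, 894 and 889.9 CPM in the 4 Treg libraries and at 31.1, 32.4, 31.3 and 29.9 in the 4 Tcon libraries. The groups lay 28.4-fold apart (log2 4.83) and each varied little. Tcon also held Foxp3 reads, at 30.0 ± 2.15 CPM in vehicle mice. Il2ra, which encodes CD25, the high-affinity chain that binds interleukin-2 (Entrez 16184; chromosome 2, 11642792 to 11693194), was at 1092, 986, 1032 and 1103 CPM in Treg and at 14.5, 15.6, 11.4 and 19.3 in Tcon. Every Treg library lay above every Tcon library, with a log2 difference of 6.13 (SE 0.09, limma adjusted p = 5.76e-12; 69.9-fold). Cd4 was at 816 ± 11.4 CPM in Treg and 1131 ± 17.1 in Tcon (log2 -0.47, limma adjusted p = 1.37e-05), lower in all 4 pairs. Cd3e, a chain of the T cell receptor complex, was at 561 and 556 CPM and did not pass. Of 11 measured CD4 T cell identity markers 2 were higher and 7 lower in Treg (median -0.22), against 29.0% and 29.0% of all genes. Higher were Cd2 (0.62) and Cd5 (0.56), and among the lower were Thy1 (-0.83) and Cd247 (-0.51).

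**Figure D1:**
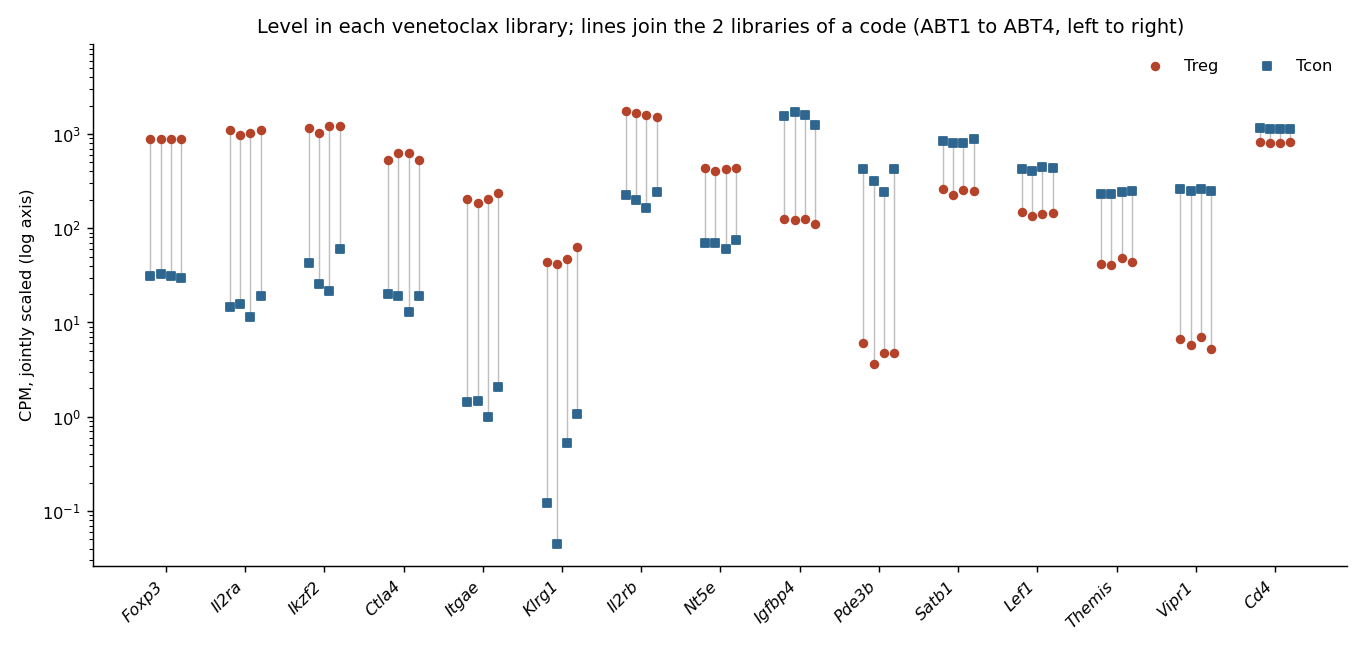
CPM (log axis) of named genes in the 8 venetoclax libraries, with the 4 Treg and the 4 Tcon libraries of each gene as points. For Foxp3 the Treg libraries sit between 882 and 894 and the Tcon libraries between 29.9 and 32.4.

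In all, 6247 of the 10774 genes differed between the subsets under venetoclax at an adjusted p of 0.05, or 58.0% of those tested, with 3120 (29.0%) higher and 3127 (29.0%) lower in Treg. Most of these differences were small: 62.4% of the called genes lay under 1.5-fold. Above 2-fold the balance was another, with 1017 genes (9.44%) higher and 301 (2.79%) lower in Treg. For 25.2% of genes all 4 Treg libraries lay above all 4 Tcon libraries, and for 23.5% all lay below. Scaling by library totals alone split the calls into 3704 higher and 2399 lower.

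The 15 largest differences in favour of Treg were led by Sdc4, Itgae and Klrg1. Sdc4, a heparan sulfate proteoglycan (Entrez 20971; chromosome 2, 164424247 to 164443188), had 71.4, 63.2, 60.7 and 61.3 CPM in Treg and 0.244, 0.398, 0.0437 and 0.385 in Tcon, the latter resting on 1 to 9 reads (log2 7.60, SE 0.25). Itgae, the αE integrin that binds E-cadherin on epithelium, stood at 207 ± 22.2 CPM against 1.48 ± 0.430 (log2 7.06). Klrg1, an inhibitory receptor of differentiated Tregs, was at 49.0 ± 9.32 against 0.440 ± 0.469, where the Tcon libraries held 1 to 25 reads (log2 6.96, SE 0.33). Next came the matrix genes Matn2 (log2 6.65) and Lamc1 (6.30), the opioid precursor Penk (6.21), Il2ra, the kinase Src (6.0) and Cd83 (5.81), a surface marker of activated immune cells. The others of the 15 were the zinc finger factor Plagl1 (5.70), Rgs9, a regulator of G protein signalling (5.69), Fam160a1 (5.66), Il1r2, a decoy receptor of interleukin-1 (5.64), Itgb8, an integrin chain that activates TGF-β (5.61), and Il1rl1, the interleukin-33 receptor (5.59). To be higher in Treg in each of the 4 pairs was a condition of entry for these 15, so it is no result.

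The 15 largest differences in favour of Tcon were led by Pdlim4 and Ggt5, and these 15 genes held 1 to 175 reads per Treg library. Pdlim4, a cytoskeletal LIM protein (Entrez 30794; chromosome 11, 54054928 to 54069032), had 66.9, 77.2, 84.0 and 57.2 CPM in Tcon and 0.184, 0.0845, 0.240 and 0.160 in Treg, the latter resting on 2 to 6 reads (log2 -8.08, SE 0.16). Ggt5, a glutathione-processing enzyme, was at 66.3 ± 5.03 CPM in Tcon and 0.230 ± 0.123 in Treg, with 3 to 9 reads (log2 -7.73). Pde3b, a phosphodiesterase known to be repressed by FOXP3 (Entrez 18576; chromosome 7, 114415222 to 114537938), stood at 426, 317, 244 and 424 CPM in Tcon and at 6.03, 3.59, 4.73 and 4.76 in Treg. No Treg library came near a Tcon library for it (log2 -6.16, SE 0.11, limma adjusted p = 1.58e-11). Vipr1, the receptor of vasoactive intestinal peptide, was at 255 ± 6.95 in Tcon and 6.17 ± 0.826 in Treg (log2 -5.36). The other 11 included the lipid transporter gene Atp8b4 (-6.72), the killer cell receptor Klrd1 (-5.66), Qpct (-4.88), Dapl1 (-4.76), Adgrg3 (-4.71) and Lypd6b (-4.52). The rest were the amyloid precursor App (-4.52), Ggt1 (-4.48), Amz1 (-4.38), Nacc2 (-4.34) and the fatty acid elongase Elovl7 (-4.25). A lower value in Treg in all 4 pairs was likewise a condition of entry for these 15.

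The measured members of the Treg signature and of the suppressor list were higher in Treg, while the transcription factor and chromatin list given further on was divided. All 20 measured genes of the Treg signature were higher in Treg (median log2 4.21, against -0.01 over all genes tested), and so were all 13 measured suppressor genes (median 3.74). These lists hold genes known to mark Tregs, so their direction restates the sort. Ikzf2, which encodes the Treg factor Helios, was at 1157, 1028, 1213 and 1222 CPM in Treg and at 42.2, 25.5, 21.8 and 59.7 in Tcon (log2 5.06), with no overlap. Ctla4, the inhibitory receptor that strips costimulatory ligands from other cells, was at 579 ± 54.0 against 17.8 ± 3.29 (log2 5.03). Further genes were Swap70 (4.10), Nt5e, the ectoenzyme CD73 that makes adenosine (2.64), and Fgl2, a secreted suppressor (3.05).

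**Figure D2:**
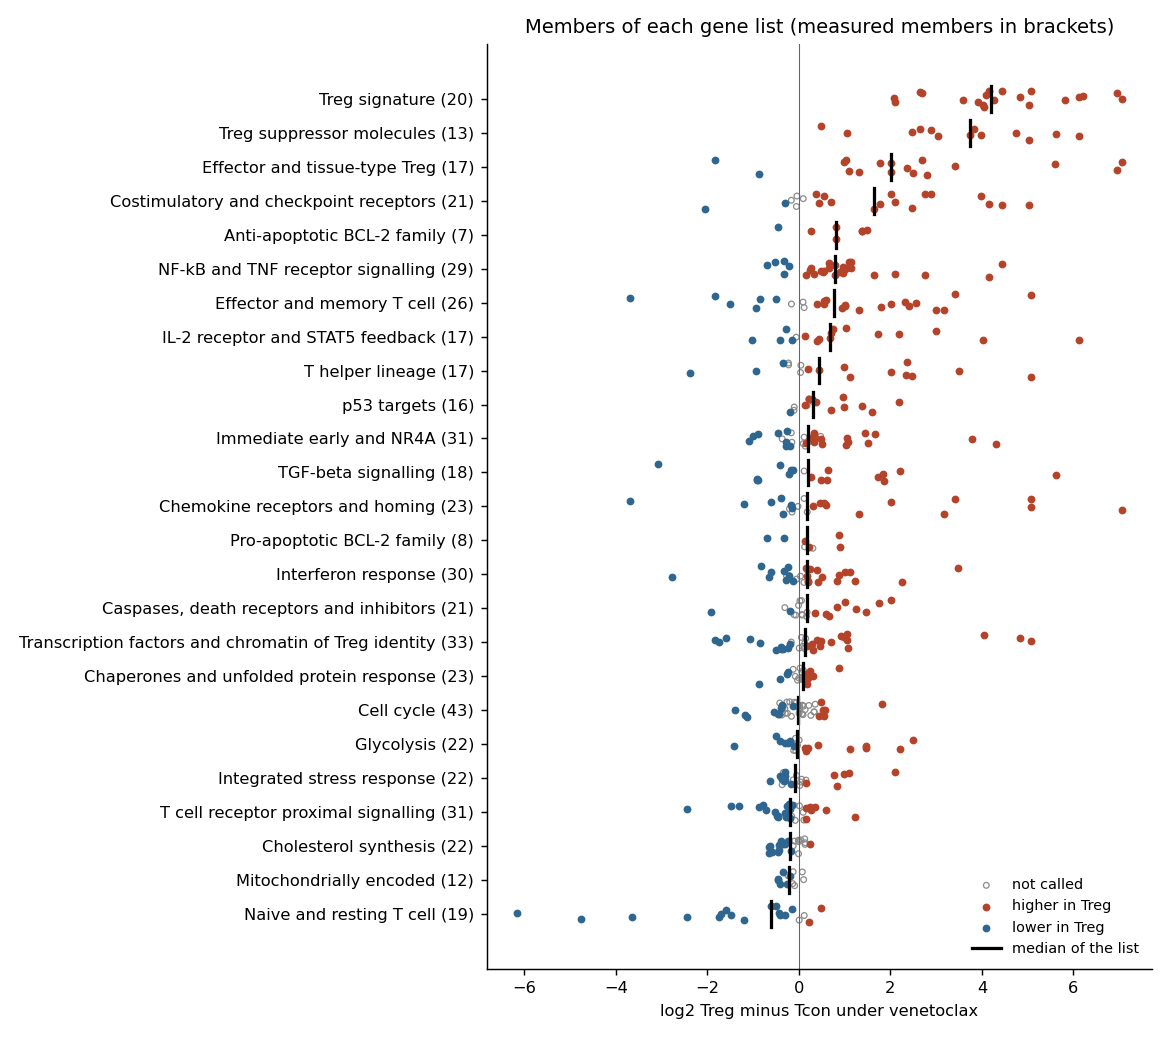
log2 Treg minus Tcon under venetoclax (x axis) for each measured member of the gene lists, marked by whether the gene passed limma's test at an adjusted p of 0.05, with the median of each list. The median runs from 4.21 for the Treg signature to -0.62 for naive and resting T cell genes.

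Costimulatory receptors and the NF-κB pathway leaned to Treg, beside 29.0% higher and 29.0% lower over all genes. Of 21 costimulatory and checkpoint receptors 15 were higher and 2 lower (median 1.63), and of 29 genes of NF-κB and TNF receptor signalling 24 were higher and 5 lower (median 0.78). Several members of the TNF receptor family were among the higher. Tnfrsf9, or 4-1BB, was at 248 ± 29.5 CPM against 11.4 ± 1.64 (log2 4.43), Tnfrsf4, or OX40, had a log2 difference of 4.16, and Tnfrsf18, or GITR, of 2.09. Tnfrsf1b, or TNF receptor 2, was at 499 ± 50.7 against 74.0 ± 9.41 (2.76).

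Tissue-type Treg genes were mostly higher, and chemokine and homing receptors were divided. Of 17 effector and tissue-type Treg genes 15 were higher and 2 lower (median 2.02; 1 lower without ABT1 and without the pairing), among the higher Itgae, Il1rl1, Ccr8, a chemokine receptor of tissue Tregs (3.41), and the costimulator Icos (1.77). Of 23 chemokine receptor and homing genes 11 were higher and 7 lower (median 0.18), with Gpr15, a colon-homing receptor (5.07), and Ccr4, a skin-homing receptor (3.17), on the Treg side. Over all genes 29.0% were higher and 29.0% lower. Cxcr6, a receptor of tissue-resident T cells chosen after its values were seen, had the largest difference toward Tcon among the 7 lower (-3.70). Of 26 effector and memory genes 17 were higher and 6 lower (median 0.76), with Il2rb and the homeodomain protein Hopx (2.56) among the higher. Of 17 T helper lineage genes 10 were higher and 3 lower (median 0.45). Higher were Ccr6, a receptor of the Th17 programme (5.07), Maf (2.36) and the Th2 regulator Gata3 (0.99).

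Naive T cell genes and proximal T cell receptor genes leaned to Tcon, while over all genes 29.0% were higher and 29.0% lower in Treg. Of 19 naive and resting genes 15 were lower and 2 higher in Treg (median -0.62). Igfbp4, a binding protein of insulin-like growth factors found in naive CD4 cells (Entrez 16010; chromosome 11, 99040005 to 99052655), was at 1555, 1716, 1583 and 1239 CPM in Tcon and at 124, 122, 124 and 111 in Treg. The subsets were 12.6-fold apart with no overlap (log2 -3.65, SE 0.06). Dapl1 (2.72 ± 0.401 against 76.5 ± 14.8 CPM) and Themis, a regulator of T cell receptor signalling (43.5 ± 3.18 against 237 ± 9.99; log2 -2.45), were lower too. Of 31 genes of proximal T cell receptor signalling 18 were lower and 7 higher (median -0.19). Besides Themis, the TEC family kinase Txk (-1.48) was lower, while Ubash3b, a phosphatase that dampens the receptor signal, was higher (1.23).

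Most genes of the interleukin-2 receptor and STAT5 feedback list were higher in Treg, while the interleukin-7 receptor, itself on that list, was lower. Of 17 genes of this list 12 were higher and 4 lower (median 0.68), against 29.0% and 29.0% of all genes. Il2rb, the receptor's β chain, stood at 1768, 1686, 1590.1 and 1513 CPM in Treg and at 224, 198, 165 and 244 in Tcon, far apart (log2 2.99, SE 0.08). Of the feedback members, Socs2 was at 82.4 ± 6.71 against 5.02 ± 0.951 (log2 4.03), the kinase gene Pim1 at 389 ± 29.8 against 118 ± 23.1 (1.74), and Cish, a feedback inhibitor chosen after its values were seen, at 287 ± 4.94 against 63.7 ± 12.7 (2.19). Pim2, a kinase gene related to Pim1 and also chosen after its values were seen, went the other way, at 29.6 ± 1.35 in Treg and 60.7 ± 2.73 in Tcon (-1.04). Il7r (Entrez 16197; chromosome 15, 9506159 to 9529941) was at 565, 637, 443 and 503 CPM in Treg and at 711, 820.0, 595 and 742 in Tcon. The groups overlap, yet Treg lay below Tcon within each of the 4 codes (log2 -0.42, SE 0.05, limma adjusted p = 4.69e-05).

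The sequences upstream of 3 genes are shown because the subset gaps of Il2ra, Il7r and Bcl2 differed between the treatments, as the values further on give. Each line holds the 250 bases before a RefSeq start site (GRCm38.p6), 5′ to 3′ on the gene's strand, with matches to the STAT motif TTCNNNGAA in capitals. That motif and the forkhead motif TGTTTAC were searched on both strands. Il2ra (chr2:11642542-11642791) lies on the plus strand, and Il7r (chr15:9529877-9530126) and Bcl2 (chr1:106714291-106714540) on the minus strand. The table gives 1 window for each of them. That of Il7r reaches into the gene span given above, so its start site lies inside that span.
Il2ra: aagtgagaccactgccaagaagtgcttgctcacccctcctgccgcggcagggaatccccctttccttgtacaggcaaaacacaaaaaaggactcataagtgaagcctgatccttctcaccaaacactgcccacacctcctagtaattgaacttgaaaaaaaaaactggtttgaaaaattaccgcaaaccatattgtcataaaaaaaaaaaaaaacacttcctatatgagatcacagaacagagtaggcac
Il7r: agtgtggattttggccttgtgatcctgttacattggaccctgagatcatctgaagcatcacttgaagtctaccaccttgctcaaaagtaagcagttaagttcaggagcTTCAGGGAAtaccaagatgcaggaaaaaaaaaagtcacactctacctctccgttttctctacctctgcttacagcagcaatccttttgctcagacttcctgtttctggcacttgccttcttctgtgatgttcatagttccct
Bcl2: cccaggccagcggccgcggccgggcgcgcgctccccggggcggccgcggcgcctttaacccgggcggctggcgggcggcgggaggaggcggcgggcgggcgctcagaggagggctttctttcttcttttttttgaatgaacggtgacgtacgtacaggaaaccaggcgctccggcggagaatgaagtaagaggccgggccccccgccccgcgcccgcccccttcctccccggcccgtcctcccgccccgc
The Il7r window holds 1 STAT match, and the Il2ra and Bcl2 windows have no match to these letters. Genes were counted once if any of their windows held a match, and genes with no window were left out (8710 of the 10774 tested had one, 769 of the 1017 higher and 237 of the 301 lower above 2-fold). So counted, a STAT match occurs in 8.13% of the 27025 genes of the RefSeq table, in 7.12% of the genes tested, in 9.10% of those higher in Treg above 2-fold and in 5.91% of those lower above 2-fold. A forkhead match occurs in 3.54%, 2.72%, 4.16% and 3.80% of these sets. The matches describe letters and not binding.

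The BCL-2 family differed member by member. Of 7 anti-apoptotic genes 6 were higher in Treg and 1, Bcl2 itself, was lower (median 0.81), against 29.0% and 29.0% of all genes. Bcl2, the target of the drug (Entrez 12043; chromosome 1, 106538176 to 106714290), was at 344, 318, 370.0 and 359 CPM in Treg and at 500.5, 557, 438 and 432 in Tcon. All 4 Treg libraries lay below all 4 Tcon libraries (log2 -0.47, SE 0.08, limma adjusted p = 0.000591). Bcl2l1, which encodes BCL-XL, was at 73.1, 67.3, 71.3 and 72.8 CPM in Treg and at 25.4, 25.9, 25.1 and 25.2 in Tcon, with no overlap (log2 1.48, SE 0.05, 2.79-fold). Mcl1, another survival protein, was at 733 ± 47.3 against 610.4 ± 19.1 (log2 0.26, limma adjusted p = 0.000854), higher in all 4 pairs. Bcl2l2, or BCL-W, had a log2 difference of 1.39, Bcl2a1b of 1.38 and Bcl2a1d of 0.80; the Bcl2a1 copies are near-identical, so the counting may have split their reads and their values are uncertain.

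Of 8 pro-apoptotic family genes 4 were higher and 2 lower in Treg (median 0.18; 1 lower without ABT1 and without ABT3). Bcl2l11, which encodes BIM, a BH3-only protein that triggers T cell death, was at 56.1, 48.5, 42.5 and 54.9 CPM in Treg and at 63.1, 72.5, 54.8 and 63.8 in Tcon. The groups overlap, and Treg was lower in all 4 pairs (log2 -0.33, SE 0.07, limma adjusted p = 0.00139). Bid, which caspase 8 cleaves (0.90), Bmf, another BH3-only gene (0.88), and the pore former Bak1 (0.22) were higher. Among 21 caspases, death receptors and inhibitors 9 were higher and 2 lower (median 0.17; 1 lower without ABT1, without ABT2 and without the pairing). Shares over all genes were 29.0% higher and 29.0% lower. Casp4 (2.02), an inflammatory caspase, and Tnfsf10, the death ligand TRAIL (1.48), were higher, and Fasl, the ligand of Fas, was lower (-1.92).

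Metabolic lists were mixed, beside 29.0% higher and 29.0% lower over all genes. Of 22 cholesterol synthesis genes 12 were lower and 1 higher in Treg (median -0.20; 2 higher without ABT3). Lower were the lanosterol synthase gene Lss (-0.66), Hmgcs1, which makes HMG-CoA (-0.63), and Idi1 (-0.46). Of 22 glycolysis genes 9 were higher and 7 lower (median -0.05), with hexokinase Hk2 (2.5), the lactate exporter Slc16a3 (2.22) and the glucose transporter Slc2a3 (1.46) higher and Pdk1, which restrains pyruvate oxidation, lower (-1.42). Of 12 mitochondrially encoded genes 6 were lower and the others did not pass (median -0.22; 2 were higher without ABT3). Among the lower were mt-Nd3 (-0.45), mt-Co3 (-0.45), mt-Atp6 (-0.41) and mt-Nd1 (-0.34), parts of the respiratory chain and ATP synthase.

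Signalling and stress lists divided in both directions, as did all genes, with 29.0% higher and 29.0% lower. Of 30 interferon response genes 15 were higher and 9 lower (median 0.17; 5 lower without the pairing). The guanylate-binding proteins Gbp3 (3.48), Gbp5 (2.25) and Gbp7 (1.22) were higher and the antiviral gene Oas2 lower (-2.76). Of 31 immediate early and NR4A genes 15 were higher and 8 lower (median 0.21), with the phosphatase Dusp4 (4.30), Rgs1 (3.77) and Egr2 (1.43) higher and Dusp10 lower (-1.1). Of 18 TGF-β signalling genes 9 were higher and 8 lower (median 0.19). Itgb8, the corepressor gene Tgif1 (1.86) and the receptor Tgfbr1 (1.72) were higher, and the coreceptor Tgfbr3 was lower (-3.08).

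Of 22 integrated stress response genes 6 were higher and 8 lower (median -0.09), against 29.0% and 29.0% of all genes. The asparagine synthetase gene Asns (2.11), Pck2 (1.09) and Sesn2 (0.98) were higher and the arginine transporter Slc7a1 lower (-0.63). Only 3 of this list were higher among genes of at least 5 CPM. Of 16 p53 targets 10 were higher and 1 lower (median 0.30; 2 lower without ABT3, and the lower call was lost without ABT4), among the higher Phlda3 (2.19), Sesn1 (0.96) and Trp53inp1 (0.71). Of 23 chaperone and unfolded protein response genes 7 were higher and 4 lower (median 0.09), with Xbp1 (0.88) and Pdia3 (0.31) higher and Hspa1a (-0.86) and Dnajc3 (-0.41) lower. This count moved to 4 higher without ABT1, 11 without ABT3 and 12 when scaled by totals, and to 2 lower without the pairing, where Hspa1a had a limma adjusted p = 0.158. Of 33 transcription factors and chromatin genes tied to Treg identity 15 were higher and 11 lower (median 0.13). Ikzf4, the factor Eos, was higher (4.05), and Satb1, a chromatin organiser of naive cells (248 ± 15.1 against 831 ± 42.0 CPM; log2 -1.75), and Lef1 (143 ± 6.62 against 428 ± 15.3; -1.58) were lower.

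The vehicle libraries, which share no sample with those above, gave the same comparison without the drug. There 5185 genes (48.1%) were called, 2576 (23.9%) higher and 2609 (24.2%) lower in Treg, and 4454 genes were called in the same direction in both treatments. Across genes, which are not independent replicates, the log2 differences of the treatments had r = 0.939. The difference between treatments was then tested over all 16 libraries with the 8 codes as blocks. It passed for 384 genes (3.56%): Treg minus Tcon was more positive under venetoclax for 161 (1.49%) and more negative for 223 (2.07%). For 238 of the 384 the gap between subsets was wider under venetoclax and for 146 it was narrower. The count was 139, 164 and 236 without ABT1, ABT2 and ABT3 in turn, 201, 238, 731 and 176 without VEH1 to VEH4 in turn, and 134 without the pairing.

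**Figure D3:**
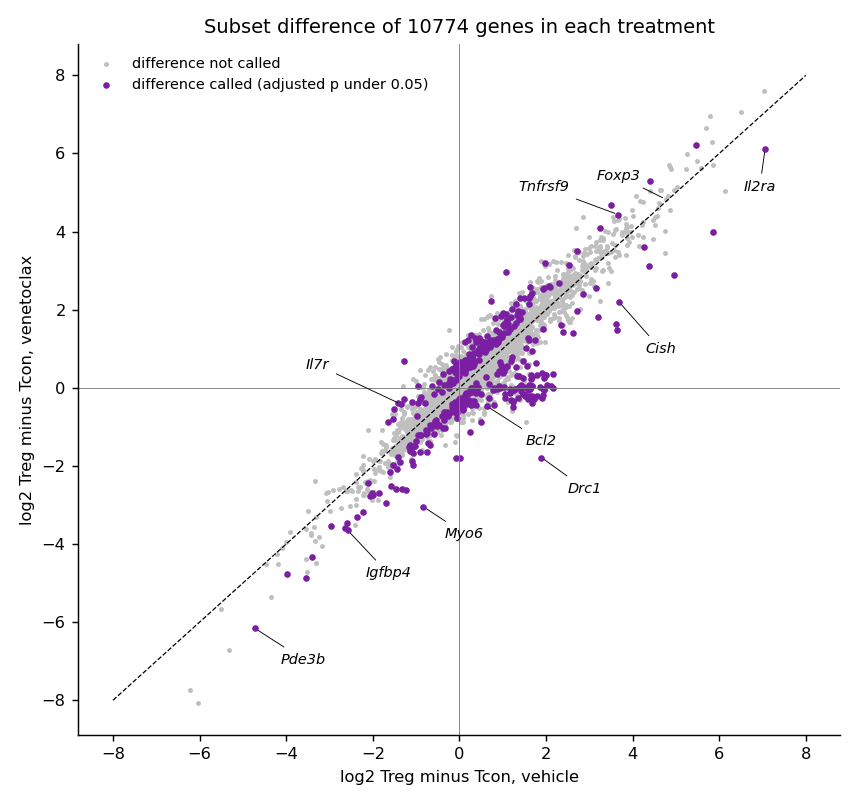
log2 Treg minus Tcon in vehicle (x axis) and under venetoclax (y axis) for each of 10774 genes, with the 384 genes whose difference between treatments passed an adjusted p of 0.05 marked. Il7r lies at -1.35 and -0.42, while Bcl2 and Drc1 lie above 0 in vehicle (0.63 and 1.90) and below 0 under venetoclax (-0.47 and -1.79).

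Bcl2 changed sides. In vehicle mice it was at 352, 363, 342 and 313 CPM in Treg and at 297, 242, 180.3 and 185 in Tcon, higher in Treg within all 4 codes (log2 0.63, limma adjusted p = 0.000946). The mean level in Treg was 342 CPM in vehicle and 348 under venetoclax, and that in Tcon was 226 and 482. The gap differed by -1.09 (95% interval -1.42 to -0.77, limma adjusted p = 0.00306). Bcl2 is 1 of 17 genes called in opposite directions in the treatments with a called difference between them.

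The gaps of both cytokine receptors were smaller under venetoclax. Il7r in vehicle mice was at 222, 275, 279 and 232 CPM in Treg and at 588, 647, 727 and 596 in Tcon, with no overlap (log2 -1.35). Its gap differed by 0.92 (95% interval 0.77 to 1.08, limma adjusted p = 9.66e-05). The mean level in Treg was 252 CPM in vehicle and 537 under venetoclax, and that in Tcon 639.7 and 717. Il2ra had a gap of 7.06 in vehicle and 6.13 under venetoclax (difference -0.93, 95% interval -1.22 to -0.65, limma adjusted p = 0.00351). Its Treg level was 1029 ± 39.0 CPM in vehicle and 1053 ± 54.7 under venetoclax, and its Tcon level 7.66 ± 1.02 and 15.2 ± 3.24. Cish went from 3.69 to 2.19 (difference -1.50, limma adjusted p = 0.000894), with Tcon at 16.04 ± 4.34 CPM in vehicle and 63.7 ± 12.7 under venetoclax. Differences between treatments that did not pass were those of Bcl2l1 (-0.29, 95% interval -0.48 to -0.11), Il2rb (-0.51, -0.86 to -0.16), Bcl2l11 (-0.42, -0.69 to -0.15) and Mcl1 (0.00, -0.14 to 0.15).

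**Figure D4:**
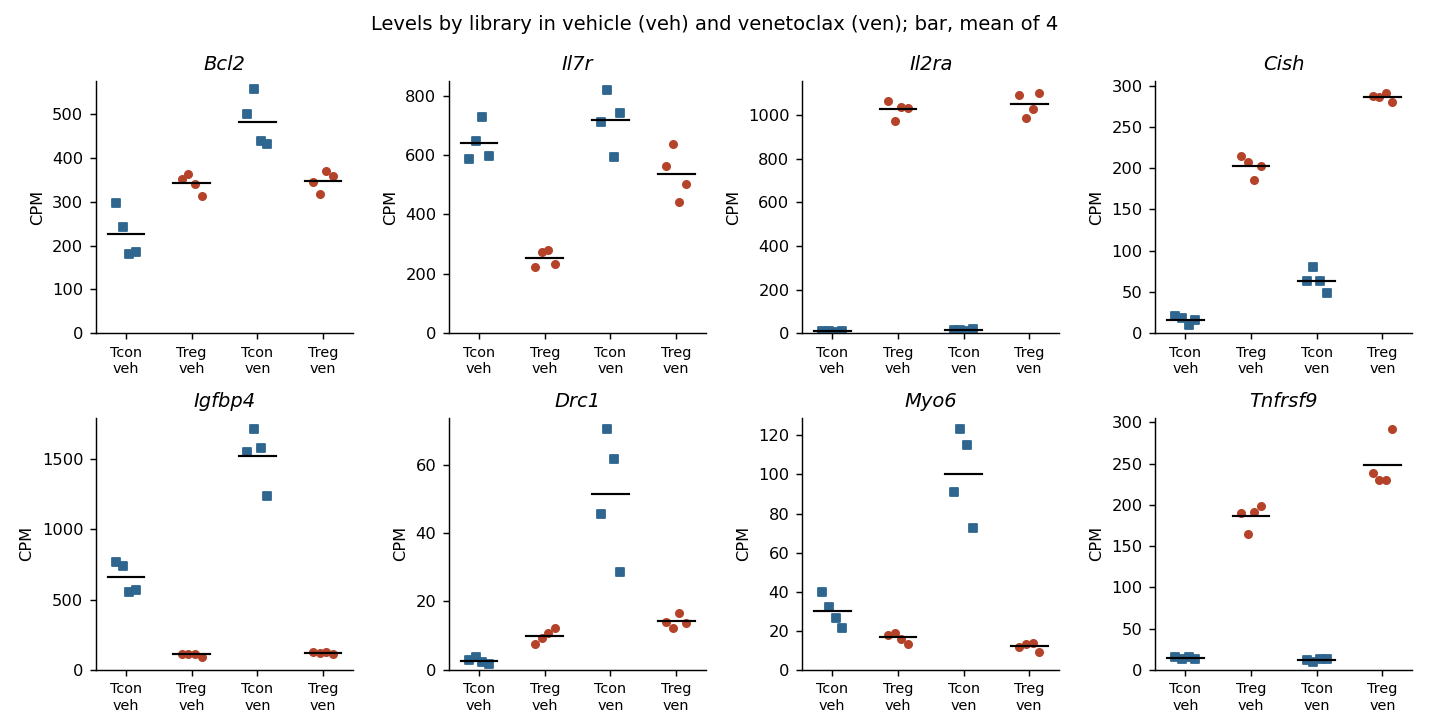
CPM of named genes in each library of the 4 groups (Treg and Tcon, vehicle and venetoclax), with the mean of 4 libraries. Bcl2 in Tcon is at 180.3 to 297 in vehicle and 432 to 557 under venetoclax, and Il7r in Treg is at 222 to 279 and 443 to 637.

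Other genes had a more negative Treg minus Tcon difference under venetoclax than in vehicle, through gaps that were wider, narrower or on the other side. Igfbp4 had -2.58 in vehicle and -3.65 under venetoclax (difference -1.08, limma adjusted p = 0.000449), with Tcon at 658 ± 112 CPM in vehicle and 1523 ± 202 under venetoclax. The largest differences among the genes the naming rule took in were those of Drc1, known from the axoneme of motile cilia (Entrez 381738; chromosome 5, 30281335 to 30366695), and Myo6, an unconventional myosin (Entrez 17920; chromosome 9, 80164976 to 80311729). Drc1 in Tcon was at 45.6, 70.4, 61.8 and 28.5 CPM under venetoclax and at 2.94, 3.84, 2.17 and 1.72 in vehicle, and in Treg at 14.2 ± 1.79 and 9.94 ± 2.06. Its gap went from 1.90 to -1.79 (difference -3.68, limma adjusted p = 0.000409). Myo6 went from -0.83 to -3.05 (difference -2.22, limma adjusted p = 1.67e-06), with Treg at 11.9 ± 1.98 CPM and Tcon at 100.5 ± 23.3 under venetoclax. No strand setting is stated for the counting, so reads from the opposite strand cannot be told apart. The other 4 of the 6 most negative were the mitotic genes Bub1 (-2.16), Nuf2 (-2.15), Kif4 (-2.14) and Esco2 (-2.06). They were higher in Treg in vehicle, with log2 differences of 1.90, 2.15, 1.94 and 1.67, and under venetoclax the differences of -0.26, 0.00, -0.19 and -0.39 were not called. The call of Bub1 was lost without ABT1 (adjusted p = 0.0626), that of Esco2 without ABT1 and VEH4 in turn (adjusted p = 0.0708 and 0.0542) and that of Nuf2 without ABT1, ABT2, ABT3, VEH1 and VEH4 in turn (adjusted p = 0.0742, 0.0586, 0.0515, 0.0561 and 0.0605).

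On the positive side, Prss12, a secreted protease, had -1.27 in vehicle and 0.68 under venetoclax (difference 1.95, limma adjusted p = 0.00351), at 2.00 ± 0.465 CPM in Treg and 1.30 ± 0.656 in Tcon. Its difference under venetoclax alone was lost in limma without ABT1, ABT3 and ABT4 in turn (adjusted p = 0.0959, 0.0728 and 0.0762), and had adjusted p = 0.0844 without the pairing. Bag3, a cochaperone of HSP70, had 0.13 and 1.17 (difference 1.04, limma adjusted p = 0.00306; adjusted p = 0.281 without the pairing). Tnfrsf9 had a wider gap under venetoclax than in vehicle, where it was 3.67 (difference 0.76, limma adjusted p = 0.00373). The deacetylase gene Hdac9 (1.19) lost its call without ABT2 (adjusted p = 0.0552), and the adaptor gene Irs2 (1.03) without ABT1, ABT2, ABT3 and VEH2 in turn (adjusted p = 0.0785, 0.0602, 0.0705 and 0.0533). The integrin gene Itga7 (1.00) lost it without ABT1, ABT2, VEH1 and VEH2 in turn (adjusted p = 0.0590, 0.0565, 0.0561 and 0.0527) and Grm6 (1.03) without ABT1, ABT2, ABT3, VEH1 and VEH4 in turn (adjusted p = 0.112, 0.0677, 0.0758, 0.0842 and 0.112). Under venetoclax alone Itga7 (log2 -0.29) and Grm6 (-0.38) did not pass.

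Many cell cycle genes had another subset difference under venetoclax than in vehicle. In vehicle mice 30 of 43 were higher in Treg and 4 lower (median 0.93), against 23.9% and 24.2% of all genes. Under venetoclax 6 were higher and 9 lower (median -0.02), against 29.0% and 29.0% of all genes. The difference between treatments was called and negative for 21 of the 43, against 2.07% of all genes. Mki67, the Ki-67 proliferation marker, and Top2a, the topoisomerase that untangles replicated DNA, were chosen after their values were seen. Mki67 was at 73.0, 43.5, 66.6 and 103 CPM in Treg and at 78.4, 53.4, 37.3 and 55.3 in Tcon under venetoclax, where the groups overlap, and at 49.1 ± 12.5 and 14.6 ± 5.11 in vehicle. Its gap went from 1.79 to 0.33 (difference -1.46, limma adjusted p = 0.00666; adjusted p = 0.117 without the pairing). Top2a went from 1.25 to -0.36 (difference -1.61, limma adjusted p = 0.00181), with Tcon at 15.2 ± 1.90 CPM in vehicle and 63.0 ± 15.6 under venetoclax. Under venetoclax the thymidine kinase gene Tk1 (1.81) and the helicase subunit Mcm6 (0.44) were higher in Treg, and Kif23 (-1.17) and Stmn1 (-1.39) lower.

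**Figure D5:**
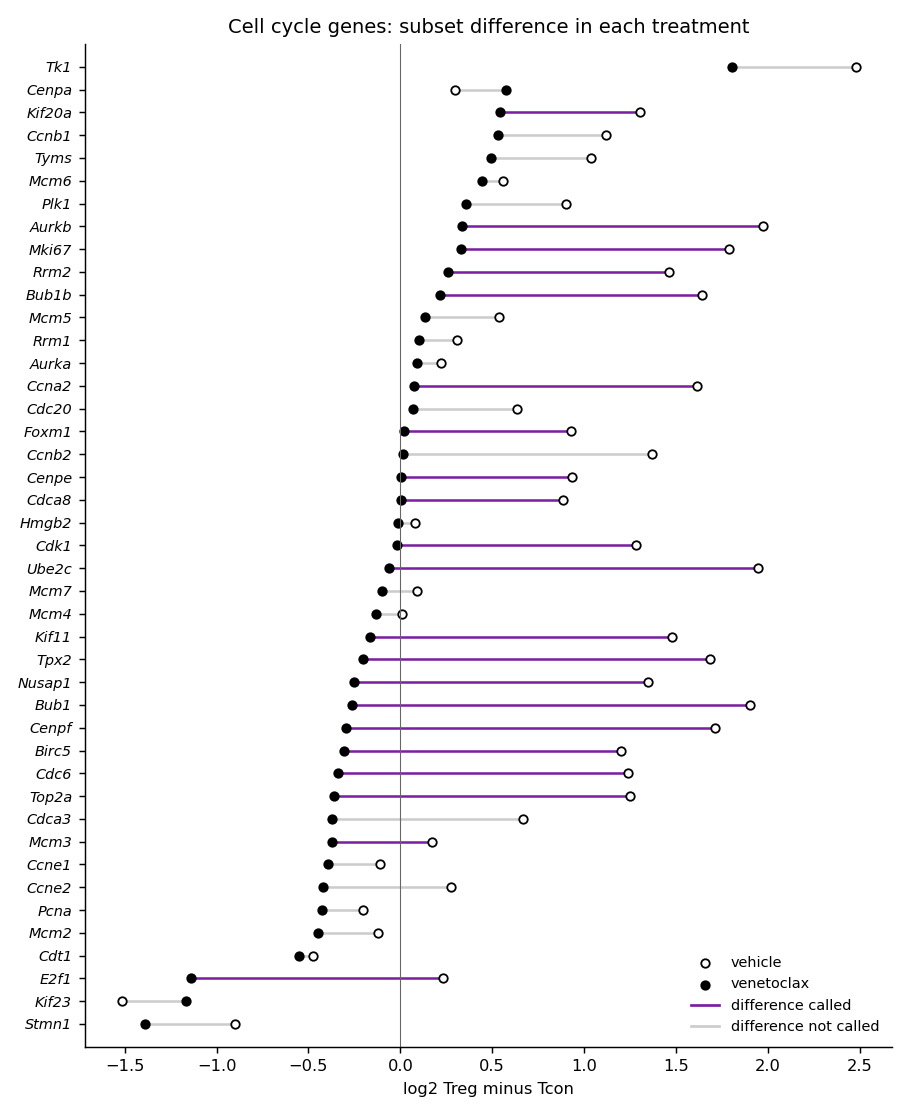
log2 Treg minus Tcon of the 43 measured cell cycle genes in vehicle and under venetoclax, with the 21 genes marked whose difference between treatments passed an adjusted p of 0.05. The median is 0.93 in vehicle and -0.02 under venetoclax.

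These counts moved with single codes. The 9 cell cycle genes lower under venetoclax became 20 without ABT4. The 21 became 9 without ABT1, 13 without ABT2, 13 without VEH4, 10 without the pairing and 10 among genes of at least 5 CPM. In bulk libraries more dividing cells and more RNA per dividing cell cannot be told apart. Of the 22 cholesterol synthesis genes 7 had a called and more negative gap, against 2.07% of all genes. The 7 became 2 without ABT1, 2 without ABT2 and 3 without ABT3, and 3 without VEH1 and without VEH4. Without the pairing 0 of them passed in limma, with 8 of the list negative at an unadjusted p of 0.05, while edgeR and DESeq2 with the pairing each called 7. Among the 7 were Hmgcs1 (difference -0.44, limma adjusted p = 0.00865; adjusted p = 0.140 without the pairing) and Idi1 (-0.50, limma adjusted p = 0.00663; adjusted p = 0.331 without the pairing).

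Genes present in the table of 1 subset could not be tested. There were 397 in the Tcon table alone and 293 in the Treg table alone. Lrrc32, or GARP, which anchors latent TGF-β on the Treg surface, was in the Treg table alone at 406 ± 28.4 CPM, followed by Gbp2b (61.9), Dnah7a (40.2), Dscam (15) and Tnfrsf8, or CD30 (13.8). In the Tcon table alone stood Lars2 (573), Lrrc75b (19.96), Adgrg5 (11.03), Adamts14 (10.52) and Zbtb16, the factor PLZF of innate-like T cells (8.96). Their levels in the other subset were not analysed here.

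Markers of other cells that a sort could let in were mostly low in both subsets. Of 77 such markers 39 were in neither table, including Pax5 of B cells, C1qa of macrophages and Trdc of γδ T cells. Another 24 were in both, and 14 were in the table of 1 subset. Hba-a1, a red cell gene, was in the Treg table alone, at 2.34, 3.84, 0.0825 and 23.2 CPM in ABT1 to ABT4. Gzmk, listed for CD8 T cells, was in the Tcon table alone at a mean of 2.64. Of the 24, 6 were higher and 7 lower in Treg, against 29.0% and 29.0% of all genes. The sum of the 24 was 304 to 349 CPM in Treg and 314 to 409.7 in Tcon. Pecam1, an adhesion gene, stood at 171 CPM in Treg and 231 in Tcon. Cd74 (64.8 in Treg, 5.76 in Tcon) and Cd79b (13.8 and 0.830) were higher in Treg. Of 3 measured B cell markers 2 were higher, and Cd79a (2.64 and 2.64) did not pass. Of 4 measured dendritic cell markers Cd74 alone was called, and H2-Aa (1.29 and 2.13) and H2-Ab1 (1.09 and 1.30) did not pass. Klrb1c, a marker of NK and NKT cells, was at 1.99 in Treg and 19.4 in Tcon. Crtam (1.46 and 9.46) and Itgam (2.20 and 9.43) were lower in Treg too. Their part in the differences above was not tested.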

How the data were processed

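The submitters' processing notes name HISAT2, SAMtools and the build mm10. For the counting tool, annotation, strand setting and gene filter, no name stands in the labels or headers. The authors deposited, per subset, a table of normalised signal (gene counts divided by a size factor of each library), with log2 fold changes and p-values of venetoclax against vehicle, per the file headers, that were not used. Whole reads were recovered from each column: all values were whole multiples of its step (tolerance 0.01). The tables hold 11171 (Tcon) and 11067 (Treg) genes, of which 10774 are shared, and were rescaled jointly by TMM over 16 libraries (edgeR 4.0.16).

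Log2(CPM + 0.1) values were fitted with limma 3.58.1 (R 4.3.3, mean-variance trend), with Benjamini-Hochberg adjustment over all shared genes and 0.05 as threshold. The code was a block because the comparison was set to pair libraries by code. Same-coded Treg and Tcon libraries also deviated together, each most with its own code. Their r was 0.213, 0.292, 0.345 and 0.441 under venetoclax and 0.307, 0.557, 0.407 and 0.503 in vehicle. The labels do not say that a code is 1 animal. The fit was tested on simulated data with 50 genes changed at each of 1.5-, 2-, 4- and 8-fold, far fewer than were called here. Of the 1.5-fold changes 82% were recovered in the subset comparison and 64% in the difference between treatments. False calls were 12 of 197 and 14 of 188. The simulated libraries had an assumed code effect and none was set apart, unlike Tcon of VEH3 and ABT3 here. These rates thus need not carry over to the data. edgeR and DESeq2 1.42.0 on recovered reads, other scalings, pseudocounts, filters and left-out codes were alternatives.

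Members and gene lists were chosen with earlier results of these data known. The named genes are the 15 highest and 15 lowest differences with a mean of at least 2 CPM and the same sign in 4 pairs, up to 4 members of each list by smallest p, 10 set genes, and the 6 most positive and 6 most negative differences between treatments. Cish, Cxcr6, Mki67, Pim2, Top2a and Ddx3y were added after their values were seen. A few genes that the rule takes in are not reported here.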

Additional observations from a re-analysis of the deposited data

Results flagged for a closer look

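A single library stood apart from the other 3 of its group in 15 of 256 groups of 4 venetoclax libraries, taken over the 128 genes named with their values. Chance gives about 1 in 20 groups. They were Asns in Tcon of ABT4 at 1.11 CPM (the other 3 libraries 0.218 to 0.366), Bub1 in Tcon of ABT1 at 3.82 CPM (the other 3 libraries 2.78 to 2.92), Cd4 in Tcon of ABT1 at 1156 CPM (the other 3 libraries 1121 to 1125), Ctla4 in Tcon of ABT3 at 12.9 CPM (the other 3 libraries 19.1 to 20.1), Dusp10 in Treg of ABT3 at 39.2 CPM (the other 3 libraries 36.4 to 36.8). The next were Esco2 in Tcon of ABT1 at 4.91 CPM (the other 3 libraries 2.62 to 2.96), Gbp3 in Treg of ABT1 at 218 CPM (the other 3 libraries 189.9 to 193), Igfbp4 in Treg of ABT4 at 111 CPM (the other 3 libraries 122 to 124), Ikzf4 in Treg of ABT2 at 120.4 CPM (the other 3 libraries 136 to 139.5), Lss in Treg of ABT2 at 17.97 CPM (the other 3 libraries 15.7 to 15.9). The last were Pdk1 in Treg of ABT2 at 154 CPM (the other 3 libraries 137 to 139), Penk in Tcon of ABT4 at 1.41 CPM (the other 3 libraries 0.690 to 0.796), Tnfrsf18 in Tcon of ABT3 at 87.0 CPM (the other 3 libraries 62.7 to 66.3), Tnfrsf9 in Treg of ABT4 at 292 CPM (the other 3 libraries 230.1 to 239), Top2a in Tcon of ABT1 at 86.3 CPM (the other 3 libraries 54.1 to 56.2).

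For 35 named genes the Treg minus Tcon difference differed between venetoclax and vehicle in the test over 16 libraries (limma, adjusted p under 0.05). The difference between treatments remained called without each code in turn for 18 of them: Bag3 1.04, Bcl2 -1.09, Cish -1.50, Drc1 -3.68, Hmgcs1 -0.44, Idi1 -0.50, Igfbp4 -1.08, Il2ra -0.93, Il7r 0.92, Kif4 -2.14, Mki67 -1.46, Myo6 -2.22, Nacc2 -0.93, Prss12 1.95, Tnfrsf9 0.76, Tnfsf10 0.63, Top2a -1.61, Txk -0.47. For the other 17 it was lost without at least 1 code. Of these Bub1 -2.16, Nuf2 -2.15, Esco2 -2.06, Hdac9 1.19, Irs2 1.03, Itga7 1.00, Grm6 1.03 have the adjusted p-values without those codes beside their values above. Dapl1 (-0.76) was not called without ABT1, ABT3, VEH1 and VEH4 in turn (adjusted p = 0.0963, 0.0787, 0.0781 and 0.0660). Hspa1a (0.78) was not called without ABT1, ABT2, ABT3, VEH1, VEH2 and VEH4 in turn (adjusted p = 0.109, 0.117, 0.121, 0.135, 0.0603 and 0.142). Icos (0.36) was not called without ABT1, ABT2, ABT3, VEH1, VEH2 and VEH4 in turn (adjusted p = 0.0692, 0.0973, 0.0855, 0.0944, 0.0582 and 0.0634). Oas2 (-0.69) was not called without ABT1, ABT2, ABT4, VEH1 and VEH2 in turn (adjusted p = 0.0993, 0.0864, 0.0551, 0.0913 and 0.0528). Pck2 (0.40) was not called without ABT1, ABT2, VEH1 and VEH4 in turn (adjusted p = 0.0742, 0.0552, 0.0612 and 0.0605). Pde3b (-1.44) was not called without ABT1, ABT2, ABT4, VEH1 and VEH4 in turn (adjusted p = 0.0993, 0.0945, 0.0743, 0.0944 and 0.0514). Penk (0.75) was not called without ABT1, ABT2, VEH1 and VEH4 in turn (adjusted p = 0.0615, 0.0602, 0.0566 and 0.0608). Qpct (-1.35) was not called without ABT1, ABT2, ABT3, ABT4, VEH2 and VEH4 in turn (adjusted p = 0.117, 0.0540, 0.0540, 0.0766, 0.101 and 0.0826). Tgif1 (0.53) was not called without ABT3, VEH2 and VEH4 in turn (adjusted p = 0.0504, 0.0584 and 0.0634). Themis (-0.33) was not called without ABT1, ABT2 and VEH4 in turn (adjusted p = 0.0708, 0.0629 and 0.0605).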

How the results depend on the processing

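The subset comparison kept its count of 6247 calls within 1.5 times under the scaling, pseudocount, low-level filter and tool alternatives, with 5155 to 6448 calls when each code was left out and 5634 with no block for the pairing. It moved under these settings: a test against 1.5-fold called 1483 (1102 higher, 381 lower), and a mean of at least 5 CPM left 592 of the 1017 genes higher above 2-fold. Library totals gave 3704 higher and 2399 lower. The difference between treatments was less stable. It had 134 calls with no block for the pairing (39 more positive, 95 more negative), 124 and 284 with upper quartile scaling, and 914 (461 and 453) without VEH3 and ABT3 together, a choice made after seeing the data. Leaving out each code in turn gave 139 to 731 calls (57 to 376 more positive, 82 to 355 more negative). As a distance between 2 libraries of a group, the chi-square per degree of freedom of recovered reads was taken. For Tcon of vehicle mice it was 90.46 to 128.8 in pairs with VEH3 and 9.873 to 20.65 in pairs without. For Tcon under venetoclax it was 37.18 to 43.71 in pairs with ABT3 and 6.328 to 11.72 in pairs without. These 2 Tcon libraries thus lay apart from their replicates. The cause of these distances and of the moves in the counts was not tested. With no block for the pairing the adjusted p of Txk was 0.0850. The log2 differences of 3 mitotic genes under venetoclax, none called, changed sign: leaving out each code gave -0.69 to 0.11 for Bub1, -0.42 to 0.13 for Kif4 and -0.36 to 0.15 for Nuf2. Nuf2 was also at 0.0595 with library totals, 0.0183 with a pseudocount of 1 CPM, 0.0553 in edgeR, 0.0109 in DESeq2 and 0.366 without ABT1 and ABT3. Tcon values of the largest Treg genes rest on few reads, which limits the size of those differences.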
